A study of Mus musculus with 8 samples.

Results

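The Polycomb repressive complexes were followed through 10 genes, taken by their symbols and not by a threshold on a measured value, although earlier results of these data were known when the genes were chosen. *Ezh1*, *Ezh2*, *Suz12*, *Eed* and *Jarid2* belong to Polycomb repressive complex 2 (PRC2), and *Ring1*, *Rnf2*, *Bmi1*, *Cbx7* and *Cbx8* belong to PRC1. All 10 were among the 54838 genes counted, and all 10 were among the 12405 genes with enough reads to be tested. RNA was sequenced from *iMLL-AF9* leukemic cells, mouse cells on the C57BL/6 background in which doxycycline switches on the *MLL-AF9* fusion oncogene. The sample labels give bone marrow as the tissue, leukaemic stem cells as the cell type and WT as the genotype in all 8 samples, whereas the description of the series calls the cells preleukaemic. Of the samples, 4 were treated with IOX5, a selective inhibitor of the HIF prolyl hydroxylases (PHDs), and 4 with DMSO, the solvent, and each group was numbered 1 to 4. The comparison asks how PHD inhibition changed gene expression in cells that all carry the same oncogene. The dose, the duration of treatment, the age of the animals and whether the replicates are separate animals or cultures are not given in the sources used here, so p-values measure the spread between these samples.

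PRC2 is a chromatin-modifying complex that places methyl groups on lysine 27 of histone H3, a mark of silenced genes. Its catalytic subunit is EZH2 or the less active EZH1, and SUZ12 and EED are the core partners that either enzyme needs. PRC1 attaches ubiquitin to histone H2A through RING1 or RNF2 together with a PCGF protein such as BMI1, and the CBX proteins of canonical PRC1 read the mark that PRC2 writes. In blood, BMI1 is known for keeping stem cells from senescence by silencing *Cdkn2a*, and leukemias driven by *MLL-AF9* are known to depend on PRC2 activity.

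The promoters of *Suz12* and *Ezh1*, the genes whose 2 groups did not overlap, and of *Ezh2*, the paralog of *Ezh1*, are printed from 250 bases before to 30 bases after the RefSeq start (GRCm38.p6), each 5′ to 3′ on the strand of its gene. Capitals mark the matches to 4 spellings of the E2F motif (TTTCCCGC, TTTCGCGC, TTTGCCGC and TTTGGCGC) or to ACGTG, the core to which HIF binds, searched on both strands. The *Suz12* window is chr11:79992856-79993135 on the plus strand, that of *Ezh2* chr6:47595001-47595280 on the minus strand and that of *Ezh1* chr11:101226434-101226713 on the minus strand.
Suz12: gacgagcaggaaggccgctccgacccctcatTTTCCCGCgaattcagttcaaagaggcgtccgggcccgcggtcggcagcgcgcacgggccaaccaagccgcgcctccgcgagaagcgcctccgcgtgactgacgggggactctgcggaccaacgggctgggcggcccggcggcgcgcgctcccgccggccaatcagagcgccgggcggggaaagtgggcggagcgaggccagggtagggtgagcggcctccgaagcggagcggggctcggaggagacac
Ezh2: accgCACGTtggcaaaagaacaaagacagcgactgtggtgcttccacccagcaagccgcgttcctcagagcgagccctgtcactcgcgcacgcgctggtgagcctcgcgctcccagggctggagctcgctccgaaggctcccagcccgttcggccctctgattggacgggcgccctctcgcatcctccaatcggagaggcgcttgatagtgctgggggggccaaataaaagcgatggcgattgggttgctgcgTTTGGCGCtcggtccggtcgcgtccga
Ezh1: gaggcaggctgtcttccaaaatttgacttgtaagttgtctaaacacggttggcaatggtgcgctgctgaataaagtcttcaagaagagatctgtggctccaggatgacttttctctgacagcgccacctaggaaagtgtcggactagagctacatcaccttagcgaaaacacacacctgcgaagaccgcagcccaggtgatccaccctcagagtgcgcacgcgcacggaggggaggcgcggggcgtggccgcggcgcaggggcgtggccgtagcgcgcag
*Suz12* held TTTCCCGC with its first base at -219 from the start, *Ezh2* held TTTGGCGC at 3 and ACGTG on the opposite strand at -246, and *Ezh1* held none of the spellings searched. Over the RefSeq windows of 300 bases that reach 50 bases past the start, 2 of the 11 windows of the 10 genes held an E2F spelling and 4 held ACGTG. Among all 32851 RefSeq windows the shares were 2.26% and 19.6%, and among the 56 windows of the other Polycomb genes they were 1.79% and 35.7%. A match is a string of letters and was not tied to binding in these cells.

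*Suz12* was lower with IOX5, and no other of the 10 genes passed the threshold when the 2 groups were compared without regard to the replicate number. Within the numbers, *Jarid2* was also lower and *Ezh1* was higher. The largest of these differences was small, since the mean of *Suz12* with IOX5 was 0.721 of that with DMSO. In edgeR's quasi-likelihood test, adjusted by Benjamini-Hochberg over the 12405 genes tested, 1 member was called lower at an adjusted p under 0.05 and 0 higher, where 1.25% of all genes tested were lower and 0.774% higher. At an unadjusted p under 0.05 there were 4 members, namely *Suz12*, *Ezh1*, *Jarid2* and *Ezh2*, where 2506 of the 12405 genes tested were. Because same-numbered samples shared part of their deviations, the number was also fitted as a block. That fit called 1 member higher (*Ezh1*) and 2 lower (*Suz12* and *Jarid2*), where 11.2% of all genes tested were higher and 9.43% lower, so 1 of 10 is near the background share. DESeq2 without the block called *Ezh1* higher and *Suz12* lower, where 3.9% of the genes it tested were higher and 4.9% lower. The median log2 fold change of the 10 genes was -0.019, against 0.017 over all genes tested.

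*Suz12*, which encodes the core subunit that holds PRC2 together (ENSMUSG00000017548; GRCm38 chromosome 11, 79993106 to 80034123), stood at 370.4, 409.6, 359.0 and 362.6 CPM with DMSO and at 291.5, 272.8, 269.4 and 248.7 CPM with IOX5 for numbers 1 to 4. CPM here are read counts divided by the scaled library size and set to a common total. Every IOX5 sample was below every DMSO sample, which held for 8.3% of all genes tested. The mean fell from 375.4 ± 23.3 to 270.6 ± 17.5 CPM (SD, n = 4), a log2 fold change of -0.47 (SE 0.0685, 95% confidence interval -0.63 to -0.32, adjusted p = 0.023 by edgeR). The adjusted p was 0.000487 with the replicate block and 1.76e-07 by DESeq2, and at most 0.0263 over the 8 alternative fits that kept all samples. Without the block the call was lost when DMSO replicate 1, 2, 3 or 4 or IOX5 replicate 3 was left out (adjusted p = 0.0614, 0.0593, 0.0767, 0.0906 and 0.072 by edgeR), although the log2 fold change stayed between -0.51 and -0.43. Those same fits called 0 to 10 genes higher and 0 to 7 lower among all genes, against 96 and 155 with all samples. With the block, leaving out any 1 number kept the adjusted p of *Suz12* at or below 0.0066.

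*Ezh1*, the catalytic subunit typical of resting cells (ENSMUSG00000006920; chromosome 11, 101191115 to 101226463), was read at 35.4, 33.4, 37.6 and 32.9 CPM with DMSO and at 45.5, 44.8, 48.1 and 38.1 CPM with IOX5. The groups did not overlap, with every IOX5 sample higher, as for 5.98% of all genes tested. *Ezh1* had a log2 fold change of 0.34 (SE 0.088, 95% confidence interval 0.14 to 0.54) and an adjusted p of 0.0781 by edgeR without the block. It passed the threshold with the block (adjusted p = 0.00713) and by DESeq2 (adjusted p = 0.0166). Over the 8 alternative fits of all samples it ran from 0.00713 to 0.158. IOX5 replicate 4 was the lowest of its group, and without it the edgeR comparison without the block gave an adjusted p of 0.0376. The call with the block was lost without number 3 (adjusted p = 0.0598).

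*Ezh2*, the main methyltransferase of dividing cells (ENSMUSG00000029687; chromosome 6, 47530139 to 47595341), stood at 165.4, 187.8, 176.1 and 172.7 CPM with DMSO and at 164.1, 139.0, 152.0 and 168.9 CPM with IOX5. The groups overlapped, and the IOX5 sample was the lower one in all 4 numbers, with log2 differences from -0.43 in number 2 to -0.011 in number 1. *Ezh2* did not pass the threshold (log2 fold change -0.17, SE 0.0749, adjusted p = 0.247 by edgeR and 0.124 with the block). The interval with the block, -0.34 to -0.01, includes a fall as large as 0.34 on the log2 scale. *Eed*, which binds the methylated histone and stimulates the enzyme (ENSMUSG00000030619; chromosome 7, 89954654 to 89980983), ranged from 81.0 to 96.8 CPM with DMSO and from 75.1 to 95.8 CPM with IOX5. It was lower in 3 numbers and higher in number 4, with a log2 fold change of -0.085 (95% confidence interval -0.29 to 0.12, adjusted p = 0.635 by edgeR).

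*Jarid2*, an accessory subunit that helps to recruit PRC2 to chromatin (ENSMUSG00000038518; chromosome 13, 44729474 to 44921643), was read at 108.8, 134.9, 97.3 and 101.0 CPM with DMSO and at 87.1, 110.4, 80.0 and 74.1 CPM with IOX5. Number 2 was the highest in each group, and the groups overlapped because of it. Within the numbers the log2 differences were -0.32, -0.29, -0.28 and -0.45. *Jarid2* had a log2 fold change of -0.33 in both fits, with an SE of 0.144 and an adjusted p of 0.239 by edgeR without the block, and an SE of 0.0634 and an adjusted p of 0.00284 with it. The call with the block stood whichever number was left out (adjusted p between 0.00094 and 0.0243). Over the alternative fits of all samples the adjusted p ran from 0.00131 by DESeq2 with the block to 0.345, and it was 0.178 by DESeq2 without the block.

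**Figure D1:**
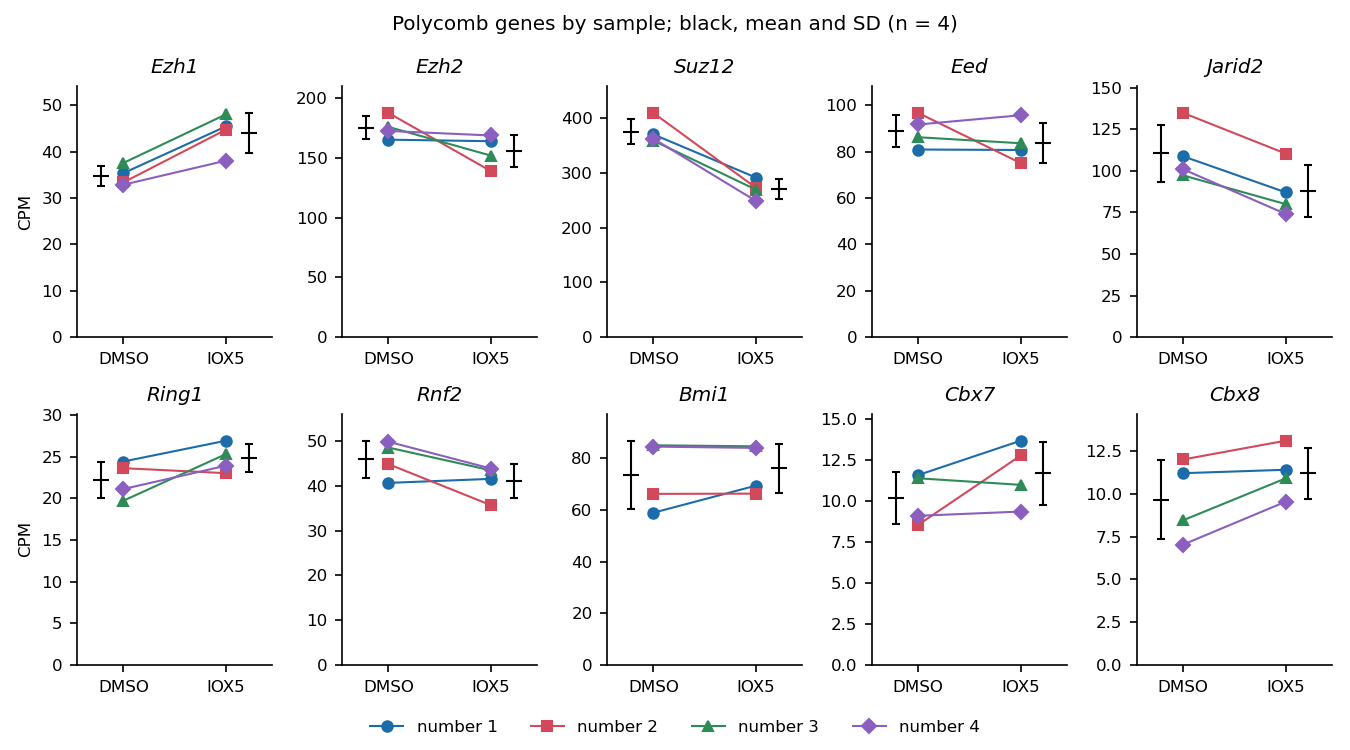
Each panel shows 1 gene, with CPM on a vertical axis that starts at 0, the 4 DMSO and 4 IOX5 samples as points, lines joining samples with the same replicate number, and the mean ± SD of each group in black. The *Suz12* points lie between 359.0 and 409.6 CPM with DMSO and between 248.7 and 291.5 CPM with IOX5, and the 4 *Jarid2* lines run down side by side.

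Of the PRC1 members, none passed the threshold in either fit. *Ring1* and *Rnf2* encode the alternative ubiquitin ligases of the complex. *Ring1* (ENSMUSG00000024325; chromosome 17, 34020792 to 34024680) stood at 24.4, 23.6, 19.7 and 21.1 CPM with DMSO and at 26.9, 23.0, 25.3 and 23.9 CPM with IOX5, higher in 3 of 4 numbers (log2 fold change 0.16, SE 0.0984, adjusted p = 0.407 by edgeR). *Rnf2* (ENSMUSG00000026484; chromosome 1, 151458004 to 151500955) stood at 40.7, 44.9, 48.6 and 49.9 CPM with DMSO and at 41.6, 35.7, 43.5 and 43.9 CPM with IOX5, lower in 3 of 4 numbers (log2 fold change -0.16, SE 0.0932, adjusted p = 0.376 by edgeR). The paralogs thus had differences of opposite sign, neither beyond the spread between samples. An annotated exon of *Trmt1l* (3428 reads over the 8 samples) overlaps *Rnf2* (4380 reads) on the opposite strand over 158 bases, and the strand setting of the counting is not stated in the methods.

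*Bmi1*, the PCGF subunit named above (ENSMUSG00000026739, chromosome 2, 18677018 to 18686629), had levels that followed the replicate number. It was read at 58.9, 66.2, 85.0 and 84.5 CPM with DMSO and at 69.4, 66.3, 84.6 and 84 CPM with IOX5. Numbers 3 and 4 were high and numbers 1 and 2 low in both groups, and the IOX5 and DMSO samples of numbers 2, 3 and 4 differed by 0.0033, -0.0070 and -0.0087 on the log2 scale. The log2 fold change was 0.047 without the block (95% confidence interval -0.27 to 0.36) and 0.055 with it (-0.09 to 0.20, adjusted p = 0.598), and its sign turned in some of the alternatives given in the closing section.

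*Cbx7* and *Cbx8* encode chromodomain proteins that bring canonical PRC1 to methylated chromatin, and had the fewest reads of the 10 genes, 1097 and 1046 over the 8 samples. *Cbx7* (ENSMUSG00000053411; chromosome 15, 79915807 to 79971119) stood at 11.6, 8.56, 11.4 and 9.11 CPM with DMSO and at 13.7, 12.8, 11 and 9.37 CPM with IOX5. *Cbx8* (ENSMUSG00000025578; chromosome 11, 119036305 to 119040969) stood at 11.2, 12.0, 8.45 and 7.03 CPM with DMSO and at 11.4, 13.1, 10.9 and 9.54 CPM with IOX5. *Cbx8* was higher with IOX5 in all 4 numbers and *Cbx7* in 3, and both had overlapping groups. The log2 fold changes were 0.20 for *Cbx7* (95% confidence interval -0.17 to 0.57, adjusted p = 0.528 by edgeR) and 0.22 for *Cbx8* (-0.21 to 0.65, adjusted p = 0.562). *Cbx7* overlaps *Apobec3* (17022 reads) on the opposite strand over 100 bases.

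**Figure D2:**
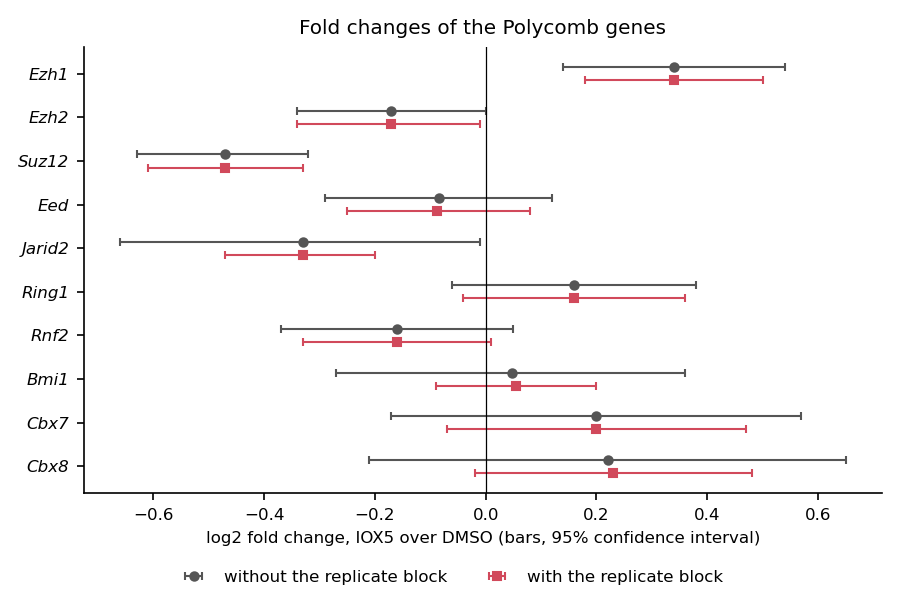
The horizontal axis gives the log2 fold change of IOX5 over DMSO with its 95% confidence interval for the 10 genes, from the edgeR fits without (grey circles) and with (red squares) the replicate block. The intervals of *Suz12*, *Jarid2* and *Ezh2* lie below 0 and that of *Ezh1* above 0 in both fits. That of *Ezh2* ends at -0.01 with the block and closer to 0 without it. The block narrows the interval of *Jarid2* from -0.66 to -0.01 to -0.47 to -0.20. The intervals are not adjusted for the number of genes tested.

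Counted by direction within the numbers, 2 members were higher with IOX5 in all 4 numbers (*Ezh1* and *Cbx8*) and 3 were lower (*Ezh2*, *Suz12* and *Jarid2*). Over all genes tested, 21.3% were higher and 19.8% lower in all 4 numbers. The spread of each gene over the 8 samples was also divided into the part between treatments, the part between replicate numbers and a remainder, as shares of the sum of squares of log2 CPM. Treatment took 90.0% of that sum for *Suz12*, 72.4% for *Ezh1* and 47.9% for *Ezh2*. The replicate number took 91.1% for *Bmi1*, 71.7% for *Cbx8* and 57.1% for *Jarid2*, for which treatment took 41.3%. The number part compares 4 levels and the treatment part 2, so the number part tends to be larger even without any effect. The shares of the 2 parts are therefore not directly comparable. They describe the 8 samples and were not tested.

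**Figure D3:**
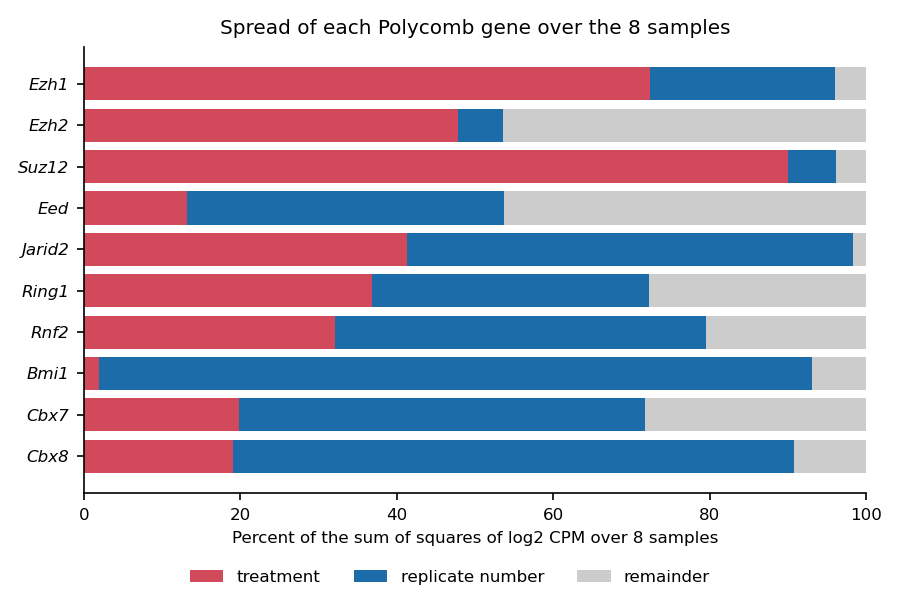
Stacked bars give, for each of the 10 genes, the percent of the sum of squares of log2 CPM over the 8 samples that lies between treatments (red), between replicate numbers (blue) and in the remainder (grey). Red fills 90.0% of the *Suz12* bar and 1.98% of the *Bmi1* bar.

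Levels were compared between genes only as CPM per kilobase, of annotated exon unless the longest transcript is named. With DMSO, *Suz12* was the highest of the 10 at 75.9 CPM per kb, above 94.9% of the genes tested that have an annotated length. *Ezh2* (26.3), *Eed* (23.2) and *Bmi1* (18.5 CPM per kb) followed, and the ranges of neighbours in this order overlapped. *Jarid2* (11.4) and *Rnf2* (11.1 CPM per kb) overlapped each other as well. Below them *Ring1* (6.85), *Ezh1* (4.68), *Cbx8* (2.63) and *Cbx7* (1.57 CPM per kb) had ranges apart from their neighbours, and *Cbx7* lay above 20.3% of the genes. With IOX5 the order was the same except that *Rnf2* (9.97 CPM per kb) came before *Jarid2* (9.04 CPM per kb), again with overlapping ranges, and *Jarid2* also overlapped *Ring1* (7.64 CPM per kb). *Suz12* remained the highest at 54.7 CPM per kb. The distances between genes depend on the length used. With the longest transcript in place of all exons, *Suz12* had 85.8 and *Ezh2* 63.0 CPM per kb with DMSO. *Rnf2* (14.4) then came before *Jarid2* (13.2), and *Ring1* (8.7) and *Ezh1* (8.28) lay close together. With IOX5 and that length *Suz12* had 61.9 and *Ezh2* 56.0 CPM per kb, and *Ezh1* (10.5) came before *Ring1* (9.71).

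In these samples the balance of the EZH paralogs lay further toward *Ezh1* with IOX5, although edgeR without the block called neither gene. The ratio of *Ezh2* to *Ezh1* per exon length was 5.2, 6.26, 5.22 and 5.85 with DMSO and 4.02, 3.45, 3.52 and 4.94 with IOX5. The groups did not overlap, and the geometric mean went from 5.61 to 3.94. *Ezh1* made up 15.1% of the summed EZH level with DMSO (13.8% to 16.1% over the samples) and 20.3% with IOX5 (16.8% to 22.5%). With the longest transcript in place of all exons, the geometric means were 7.61 and 5.34, since a change of length multiplies the ratio by the same factor in every sample. The ratio of *Rnf2* to *Ring1* was lower with IOX5 in all 4 numbers (geometric mean 1.63 with DMSO and 1.30 with IOX5), with overlapping groups. That of *Cbx8* to *Cbx7* was 1.65 and 1.70, lower in 2 numbers and higher in 2. These ratios were computed as descriptions, with no test.

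*Bmi1* held 42.9% of the PCGF level with DMSO and 44.1% with IOX5, the largest share of the 6 PCGF genes. With the longest transcript as length its shares were 33.7% and 34.6%, still the largest. Per annotated exon, the share of *Ring1* beside *Rnf2* was 38.1% with DMSO and 43.4% with IOX5.

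**Figure D4:**
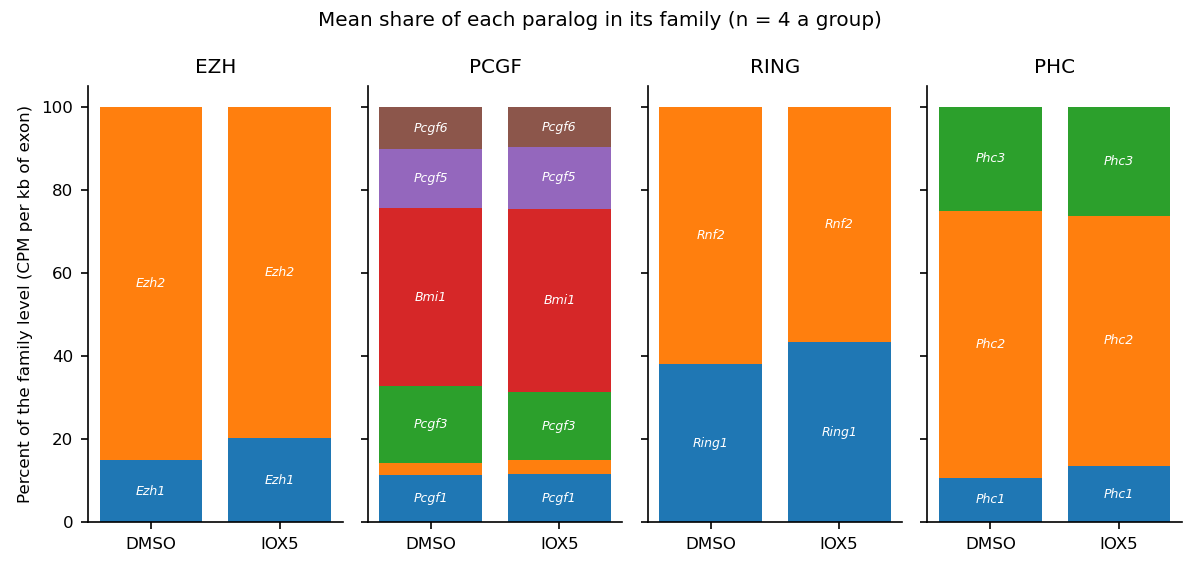
Stacked bars give the mean percent (n = 4 a group) that each paralog contributed to the summed CPM per kb of its family, for the EZH, PCGF, RING and PHC genes with DMSO and IOX5. *Ezh1* takes 15.1% of the EZH bar with DMSO and 20.3% with IOX5, and *Bmi1* takes 42.9% and 44.1% of the PCGF bars.

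The other genes of the system were read from 5 lists of 50 genes, of which 47 were tested and 3 (*Scml4*, *Auts2* and *Asxl3*) had too few reads. Without the block edgeR called 0 of the 47 in either direction, with 8 at an unadjusted p under 0.05, while DESeq2 called 2 lower. Of all 12405 genes tested, 2506 were at that unadjusted p, and DESeq2 called 4.9% of the genes it tested lower. With the block, 1 was higher and 5 were lower, fewer higher genes than the 11.2% of all genes tested and a share of lower genes close to the 9.43% of all genes tested. All 6 of these calls were lost when number 3 was left out of the blocked fit. The median log2 fold change over the 47 was -0.029, and 30 had a negative sign, as did 5855 of all 12405 genes tested. Every IOX5 sample was below every DMSO sample for 8 of the 47 and above for 0. Over all genes tested the shares were 8.3% and 5.98%. In all 4 numbers 13 of the 47 were lower and 3 higher, against 19.8% and 21.3% of all genes tested. The summed level of the 50 genes was 5133.7 to 5180.1 CPM with DMSO and 4766.5 to 5074.2 CPM with IOX5.

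Of the 9 further PRC2 subunits, 6 had a negative sign and 2 were lower with the block. These were *Phf19*, a Polycomb-like protein that helps PRC2 onto chromatin (25.9 ± 3.56 CPM with DMSO and 21.3 ± 2.91 CPM with IOX5, SD, n = 4; log2 fold change -0.28, adjusted p = 0.279 by edgeR and 0.0411 with the block), and *Lcor*, whose locus also encodes a PRC2 partner (29.3 ± 2.33 and 23.6 ± 2.35 CPM; log2 fold change -0.31, adjusted p = 0.135 and 0.0448). Every IOX5 sample was below every DMSO sample for 2 of the 9, *Lcor* among them and *Phf19* not, and for 8.3% of all genes tested. Of the 9 further genes of canonical PRC1, 8 were tested, with a median log2 fold change of 0.032.

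Of the 18 subunits of variant PRC1, 17 were tested, and with the block 1 was higher and 1 lower. *Bcorl1*, a corepressor of the PCGF1 complex, had 14.1 ± 1.59 CPM with DMSO and 17.5 ± 1.64 CPM with IOX5 (log2 fold change 0.32, adjusted p = 0.181 by edgeR and 0.0493 with the block). *Usp7*, a ubiquitin-specific protease found in that complex, had 366.2 ± 9.41 and 319.6 ± 19.5 CPM (log2 fold change -0.20, adjusted p = 0.113 and 0.0491, and 0.0479 by DESeq2). The opposing enzymes remove the marks of both complexes. None of the 11 tested genes of the H2A deubiquitinase complexes passed either edgeR threshold (2 at an unadjusted p under 0.05 without the block and 4 with it, 0 by DESeq2), with log2 fold changes from -0.22 to 0.23. Of all 12405 genes tested, 2506 were at that unadjusted p without the block and 4390 with it. Of the 2 demethylases that remove the PRC2 mark, *Kdm6a* was lower with the block (log2 fold change -0.19, adjusted p = 0.0478, against 0.699 without it, and 0.0717 to 0.152 in the blocked fits that left out 1 number) and *Kdm6b* was not called (log2 fold change 0.10, adjusted p = 0.746 and 0.480). *Kdm6a* lies on the X chromosome and stood at 103.3, 191.1, 191.6 and 186.5 CPM with DMSO and at 93.9, 166.2, 174.2 and 154.5 CPM with IOX5, so that number 1 was far below the others in both groups.

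**Figure D5:**
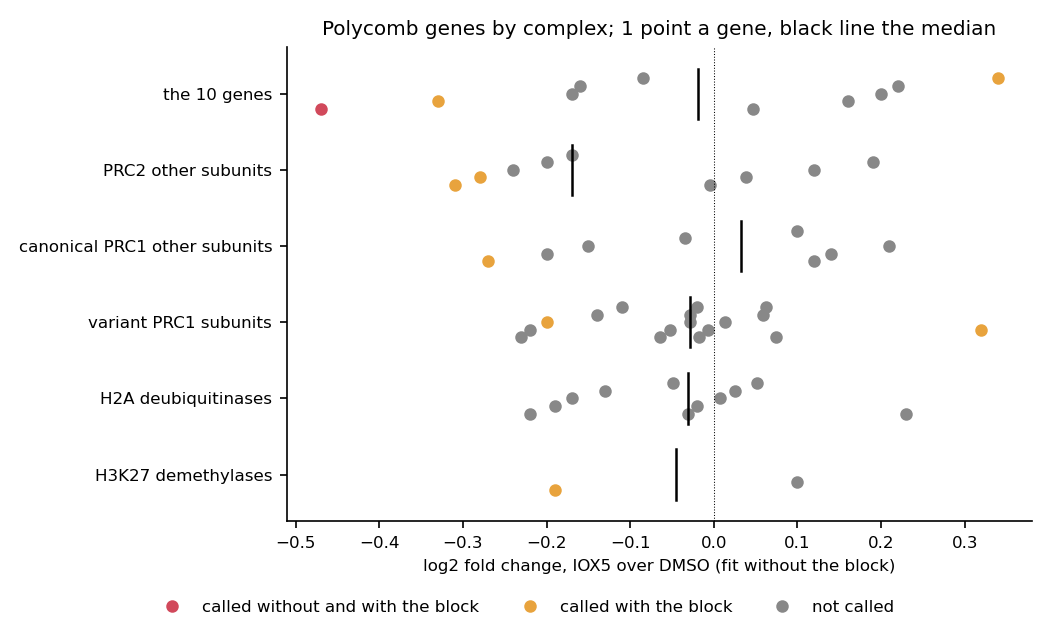
Each point is 1 tested gene at its log2 fold change of IOX5 over DMSO from the fit without the block, in rows for the 10 genes and the 5 further lists, with a black line at the median of each row. *Suz12*, at -0.47, is the lowest point and is the gene called in both fits, and the further PRC2 subunits have the lowest median, -0.174.

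Genes that Polycomb commonly silences were read from a list of 15. Of these, 12 averaged under 1 CPM and 3 (*Hoxd11*, *Hoxd12* and *Hoxd13*) had no read in any sample, which limits them to 3 reads per library. The 3 with an average of at least 1 CPM were *Cdkn2a*, *Cdkn2b* and *Hoxb13*. *Cdkn2a*, which encodes the cell cycle inhibitors p16 and p19 (ENSMUSG00000044303; chromosome 4, 89274471 to 89294653), was read at 8.05, 3.11, 4.96 and 5.48 CPM with DMSO and at 13.3, 8.61, 11.9 and 9.54 CPM with IOX5. The groups did not overlap, with every IOX5 sample higher, as for 5.98% of all genes tested. IOX5 was higher in all 4 numbers, as for 21.3% of all genes tested. The log2 fold change was 1.0 (SE 0.276, 95% confidence interval 0.38 to 1.63), with an adjusted p of 0.0928 by edgeR, 0.000576 with the block and 0.0103 by DESeq2, and between 5.3e-05 and 0.115 over the 8 alternative fits. With the block the call stood whichever number was left out (adjusted p at most 0.0076). These rest on 40 to 166 reads per library.

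*Cdkn2b*, the neighbouring inhibitor gene, was read at 2.12, 0.70, 4.39 and 2.63 CPM with DMSO and at 3.84, 1.95, 5.71 and 3.38 CPM with IOX5 (log2 fold change 0.60, adjusted p = 0.54 by edgeR and 0.0424 with the block). It was higher in 4 of 4 numbers, on 9 to 73 reads per library, and the call with the block was lost whichever number was left out (adjusted p between 0.055 and 0.136). *Hoxb13* followed the number, at 2.54, 2.64, 0.162 and 0 CPM with DMSO and 1.92, 3.37, 0.234 and 0.347 CPM with IOX5, and was not called (adjusted p = 0.968 by edgeR). Without the block edgeR called 0 of the 3 tested genes of this list (1 at an unadjusted p under 0.05), and with it 2 were higher. Of all 12405 genes tested, 2506 were at that unadjusted p without the block and 11.2% were higher with it.

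Other features of the same libraries were read beside these genes. All 12 proliferation markers had a negative sign, with log2 fold changes from -0.70 to -0.04, where 5855 of all 12405 genes tested had that sign. Their summed level was 4982.2 to 5273.0 CPM with DMSO and 3619.3 to 4347.5 CPM with IOX5. Of the 12, 2 were called lower by edgeR without the block. These were *Mki67* (log2 fold change -0.70, adjusted p = 0.0143) and *Rrm2* (-0.51, adjusted p = 0.0294), the second of which is named here after its values were seen. With the block 10 were lower. Of all genes tested, 1.25% were lower without the block and 9.43% with it. The part of proliferation in the levels of *Suz12*, *Ezh1* or *Cdkn2a* was not tested. Libraries held 11351507 to 14116054 reads on genes. The share of these reads on mitochondrial genes was 1.269% to 1.37% with DMSO and 1.372% to 1.539% with IOX5, higher with IOX5 in all 4 numbers, and its part in the levels of the Polycomb genes was not tested. The leukemia program of *MLL-AF9* was read in every sample, with *Myb* between 259.1 and 492.6 CPM, *Mef2c* between 126.7 and 347.6 CPM and *Hoxa9* between 219.9 and 292.5 CPM. With the block, *Myb* (log2 fold change 0.36, adjusted p = 0.00284, against 0.203 by edgeR without it) and *Kit* (0.4, adjusted p = 0.00259, against 0.489) were higher and *Mef2c* was lower (-0.48, adjusted p = 0.00129, against 0.329), *Kit* being named after its values were seen. Of the T cell markers 0 of 5 reached 1 CPM and *Cd3g*, *Cd4* and *Cd8a* had no read, and of 6 B cell markers 5 stayed under 1 CPM, with no read for *Ms4a1*. The 6 macrophage markers summed to 147.6 to 205.7 CPM with DMSO and 224.7 to 500.2 CPM with IOX5, and with the block 2 of 5 tested were higher. With the block 6 of 8 granulocyte markers were higher (summed level 4381.4 to 7405.7 CPM with DMSO and 5117.1 to 8270.2 CPM with IOX5), as were 5 of 5 tested mast cell markers (81.1 to 345.5 and 104.4 to 626.2 CPM), 3 of 4 tested megakaryocyte markers (16.3 to 64.5 and 38.9 to 117.7 CPM) and 2 of 4 tested erythroid markers (5.13 to 23.7 and 8.61 to 40.9 CPM). Among these, *Gp1bb* of the megakaryocyte list had no read, and 0 genes of the 5 lists were called by edgeR without the block, with 4 at an unadjusted p under 0.05 and 3 higher by DESeq2. Of all 12405 genes tested, 2506 were at that unadjusted p and 11.2% were higher with the block. DESeq2 called 3.9% of the genes it tested higher. The part of these cell types in the levels of the Polycomb genes was not tested. In bulk samples, more or fewer cells of a type and more or less RNA per cell cannot be told apart. Number 1 stood apart in both groups, with *Xist* at 1.34 and 0.0801 CPM against 1236.4 to 1645.7 CPM in the other samples and the Y-linked *Uty* at 35.8 and 50.1 CPM against at most 0.0888 CPM. With the block and without number 1, the log2 fold change was -0.52 for *Suz12* (adjusted p = 0.00204), 0.33 for *Ezh1* (0.038), -0.35 for *Jarid2* (0.0147) and 1.15 for *Cdkn2a* (0.000867).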

How the data were processed

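Poly(A) RNA of 8 samples, 4 treated with DMSO and 4 with IOX5, went into directional libraries that were read from 1 end. The authors trimmed reads with Cutadapt 1.18, mapped them to GRCm38 with HISAT2 2.2.1 and deposited raw read counts per Ensembl gene from htseq-count (HTSeq 2.0.1), 1 table per sample, without normalization. The summary lines of unassigned reads (20.649% to 22.556%) entered neither library sizes nor tests. Gene names and coordinates came from GENCODE M21 of the same build, matched for 54809 of 54838 identifiers. Groups were taken from the sample labels.

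Counts were filtered with filterByExpr, scaled with TMM factors and tested with edgeR 4.0.16 in R 4.3.3 (quasi-likelihood test, no block, Benjamini-Hochberg adjustment over 12405 genes, threshold 0.05). SE values are the log2 fold change divided by the square root of F, and log2 CPM used a prior count of 2. Same-numbered samples deviated together across genes (correlations of 0.758, 0.744, 0.732 and 0.636 for numbers 1 to 4, all above the 0.1 set for pairing). The pairing comes from these correlations and the numbers in the labels, which do not say what a number stands for. Alternatives were the block, DESeq2 1.42.0 with and without it, upper-quartile and RLE factors, limma 3.58.1 voom with sample weights, no filter, at least 10 counts in every sample, and each sample left out. Leaving out each number in the blocked fit, and all fits of *Cdkn2a*, were added after seeing the data. Steps were tested on simulated data. The study's methods name DESeq2, which was an alternative here.

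The 10 genes and the further lists were chosen with earlier results of these data known. Named genes were the 10 members, further Polycomb genes called with or without the block (at most 8), silenced genes with at least 1 CPM on average, and a few genes of the other lists by their level. Values of 1 further gene that the rule names are not reported here. Promoters were RefSeq windows (GRCm38.p6), matched by symbol for all 10.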

Additional observations from a re-analysis of the deposited data

Results flagged for a closer look

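No group of 4 samples of the 10 genes held a sample far from the other 3 by Dixon's test at the 95% level. Over these and the 50 further Polycomb genes, 120 groups of 4 were tested and 5 held such a sample, where chance gives about 1 in 20. *Kdm6a* in DMSO replicate 1 stood at 103.3 CPM, against 186.5 to 191.6 CPM in the other DMSO samples, and IOX5 replicate 1 was also the lowest of its group. *Phc1*, a PRC1 scaffold gene, stood at 10.8 CPM in DMSO replicate 1 against 5.77 to 6.25 CPM. *Cbx6*, a CBX paralog, stood at 44.1 CPM in DMSO replicate 2 against 53.7 to 55.3 CPM. *Yaf2*, a subunit of variant PRC1, stood at 38.5 CPM in IOX5 replicate 2 against 46.6 to 48.2 CPM. *Asxl1*, the partner of the deubiquitinase BAP1, stood at 110.7 CPM in IOX5 replicate 4 against 125.1 to 125.6 CPM.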

How the results depend on the processing

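Over all genes, 96 were called higher and 155 lower without the block. The counts were 1394 and 1170 with the replicate block, 433 and 544 by DESeq2, 901 and 795 by DESeq2 with the replicate block, 426 and 610 by voom with sample weights, and 73 lower with no filter on low counts. Leaving out 1 sample gave 0 to 130 higher and 0 to 333 lower, with 0 in both directions when DMSO replicate 3 or 4, or IOX5 replicate 3, was absent. Of the 10 members, 0 were called higher and 1 lower without the block. With the replicate block, 1 was higher and 2 lower, as by DESeq2 with the replicate block, and DESeq2 and voom each gave 1 higher. Leaving out 1 sample gave 0 to 1 in either direction. The further Polycomb genes went from 0 and 0 to 1 higher and 5 lower with the replicate block, 2 lower by DESeq2 and 1 lower by DESeq2 with the replicate block. In the blocked fit, leaving out 1 number gave 0 to 1 members higher and 2 lower, and 0 to 1 further genes higher and 0 to 6 lower. Each 0 came without number 3, and the further gene called higher was also lost without number 2. Calls of named genes that changed with the block are given in the report, and it changed no other call of the 10 members. *Bmi1* turned from a log2 fold change of 0.047 to -0.0127 with voom, and leaving out samples moved it between -0.0464 and 0.14, with values of -0.000482, -0.00783 and -0.00423 without DMSO replicate 2, IOX5 replicate 3 and IOX5 replicate 4. The other 9 members and *Cdkn2a* kept their direction in all 16 alternatives each. The causes of these changes were not tested. The median log2 fold change of all genes was 0.0169 with TMM, 0.0277 with RLE factors, 0.0346 with upper-quartile factors and 0.0227 by DESeq2. Reads limit *Cbx7*, *Cbx8* and the silenced genes most.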
